A study of Rattus norvegicus with 15 samples.

Results

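Expression of 10 genes was followed here with every probe set the array holds for them: Herc1, Kdm5a, Ro60, Hook3, Akap9, Tpr, Pja2, Pak2, Nlk and Alg2. They were chosen because a probe set of each gave higher values in light than in the 0 ZT dark control, while others of the same gene did not follow. At 3 ZT that disagreement did not hold for Ro60, whose probe sets both rose over the control. For Pak2, Nlk and Alg2 the chosen values were about as high in darkness at the same hour as in light. A probe set was taken when the platform annotation gave it exactly 1 symbol and that symbol was among the 10 genes, which yielded 31 of 31099 probe sets, and 10 of 14218 genes with a symbol. The values that chose them, the ratios of 3 ZT light or 6 ZT light over 0 ZT dark, are given below as a description, with no test.

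Retinas of adult male Long Evans rats kept in the dark overnight were compared in 5 conditions with 3 replicas each, on 15 Affymetrix RAT230_2 arrays. In light of 1000 lux, retinas were collected after 3 hours (3 ZT light, 10 am) and after 6 hours (6 ZT light, 1 pm). The dark conditions were 0 ZT dark at 7 am, which served as control, 3 ZT dark at 10 am and 6 ZT dark at 1 pm. For 6 ZT light, other labels name 3 hours of light where the sample titles name 6, and the titles were followed. Whether a replica was 1 animal or a pool is not stated in the labels, so the p-values measure the spread between these samples only. All values are log2 expression values as deposited, and a difference of 1 is a factor of 2.

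An array of this kind reads a transcript with several probe sets, each a group of short oligonucleotides that match a single expressed sequence. Probe sets of the same gene can lie in different exons or behind different 3′ ends, so they need not report the same transcripts. They also bind with different strength, so a bright and a dim probe set do not stand for more and less RNA, and only changes between arrays are set side by side. The sequences the probe sets target and their places in the genes are not analysed here. Among the 10 genes, Herc1 and Pja2 are ubiquitin ligases, Kdm5a removes methyl groups from histone H3, and Ro60 binds small noncoding RNAs. Hook3 couples cargo to dynein, Akap9 anchors protein kinase A at the centrosome and Golgi, and Tpr forms the basket of the nuclear pore. Pak2 is a kinase downstream of Rac and Cdc42, Nlk is a kinase of the Wnt pathway, and Alg2 is a mannosyltransferase of N-linked glycosylation.

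The retinal identity of the samples was plain in the markers: of 10 rod and cone genes listed, 8 were measured, and the mean of these 8 lay between 13.07 and 13.49 on all 15 arrays. Array medians followed the replica number more than the condition (8.28 to 8.32 in replica 1, 8.58 to 8.68 in replica 2, 8.75 to 8.81 in replica 3), so all comparisons were made within replica numbers. A measure of RNA integrity, the log2 value of the 3′ Actb control minus that of its 5′ control, was 2.40 in 3 ZT light replica 2 and 2.10 in 0 ZT dark replica 1, against 0.708 to 1.37 on the other 13 arrays. These 2 arrays stand apart from the rest. Levels are printed array by array, and the counts and the correlations are also given without them. The difference between light and darkness at 3 ZT is given without them only for a probe set of Alg2 and a probe set of Pak2. It is not given without them for the genes chosen in 3 ZT light.

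Markers of 2 neighbouring tissues moved with the conditions. The mean of 7 markers of the lens, which can adhere to the retina, was 9.82 to 11.94 in 3 ZT light, against 9.72 to 10.71 in 3 ZT dark (6 of 7 above 0, median difference 0.92). It was 7.90 to 10.99 in 6 ZT light, against 10.78 to 12.00 in 6 ZT dark (7 of 7 below 0, median −1.72), and 6 ZT dark was above 3 ZT dark in 7 of 7 (median 1.051). The mean of 6 markers of the pigment epithelium was 12.03 to 12.35 in 3 ZT light, against 11.79 to 12.43 in 3 ZT dark. It was 11.79 to 12.71 in 6 ZT light, against 11.06 to 12.02 in 6 ZT dark (6 of 6 above 0, median 0.62), and 6 ZT dark was below 3 ZT dark in 6 of 6 (median −0.54). The lowest single markers averaged 9.12 (Bfsp1, lens) and 9.66 (Lrat, pigment epithelium). No marker passed an adjusted p of 0.05 in limma, and the part of these tissues in the values of the 10 genes was not tested.

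Promoter sequence was available for 9 of the 10 genes (RefSeq, build GRCr8, windows of 300 bases that begin upstream of the transcription start and end just past it), and not for Hook3. Both strands were searched for 4 motifs: TGACG, the core of cyclic AMP response elements, the full element TGACGTCA that contains it, the E-box CACGTG, and AGGTCA, the core site of thyroid hormone receptors. TGACG was found in 5 of the 9 promoters (Alg2, Nlk, Pja2, Ro60 and Tpr) and in 21.2% of 33469 rat promoters of the same length. The other motifs were found in none of the 9, and in 1.83%, 6.42% and 16.2% of all promoters. A match is a description of the letters only. Printed here are 1 gene whose probe sets followed each other (Ro60) and 1 from each group of probe sets correlated below (Tpr and Alg2). They run 5′ to 3′ on the strand of the gene, with TGACG or its complement in capitals.
Ro60, GRCr8 chr13:58070779-58071078, minus strand: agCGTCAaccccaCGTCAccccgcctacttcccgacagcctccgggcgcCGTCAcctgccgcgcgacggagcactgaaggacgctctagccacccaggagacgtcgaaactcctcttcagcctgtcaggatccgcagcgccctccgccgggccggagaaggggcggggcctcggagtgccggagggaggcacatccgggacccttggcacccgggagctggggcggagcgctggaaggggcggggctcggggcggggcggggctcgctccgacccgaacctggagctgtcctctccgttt
Tpr, GRCr8 chr13:64974169-64974468, plus strand: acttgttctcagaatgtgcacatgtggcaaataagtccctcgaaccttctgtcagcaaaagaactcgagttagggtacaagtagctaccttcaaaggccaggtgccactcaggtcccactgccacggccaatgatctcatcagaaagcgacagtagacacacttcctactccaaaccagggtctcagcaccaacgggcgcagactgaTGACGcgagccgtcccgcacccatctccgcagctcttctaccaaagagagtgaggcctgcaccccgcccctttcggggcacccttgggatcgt
Alg2, GRCr8 chr5:66568838-66569137, minus strand: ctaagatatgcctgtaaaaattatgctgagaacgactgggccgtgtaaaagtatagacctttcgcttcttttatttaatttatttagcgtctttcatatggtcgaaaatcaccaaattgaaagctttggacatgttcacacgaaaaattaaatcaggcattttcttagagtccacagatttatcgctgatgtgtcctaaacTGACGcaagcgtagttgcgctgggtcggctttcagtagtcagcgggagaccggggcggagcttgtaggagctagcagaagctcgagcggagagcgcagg

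In 3 ZT light, 6 of the 31 probe sets were more than 1.6 times above 0 ZT dark in every replica: Herc1 1394746_at, Kdm5a 1376299_at and 1391689_at, Ro60 1394972_at and 1382368_at, and Hook3 1385931_at. Over the whole array 18 probe sets met this rule (0.058%), and nothing is read from the difference because the rule chose the genes. In 6 ZT light it was met by 3 of the 31 (Pak2 1396267_at, Nlk 1389926_at and Alg2 1397516_at), and by 22 on the array (0.0709%). In 6 ZT dark, Alg2 1397516_at and 1392437_at met it without any light, among 20 on the array (0.0644%), and in 3 ZT dark no probe set of the array did. Just inside the limit at 3 ZT light were Ro60 1382368_at and Kdm5a 1391689_at, with lowest ratios of 1.69 and 1.70. Just outside were Tpr 1394814_at, Akap9 1384857_at and Pja2 1375421_a_at, with lowest ratios of 1.512, 1.506 and 1.499, and at 6 ZT light Ro60 1394972_at (1.599), Alg2 1380381_at (1.565) and Alg2 1392437_at (1.516). A lower limit of 1.5 was met by 8 of the 31 in 3 ZT light (0.0966% of the array), by 6 in 6 ZT light (0.158%) and by 3 in 6 ZT dark, all of Alg2 (0.132%), and nothing is read from these counts either.

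Kdm5a, the histone demethylase, had 4 probe sets that disagreed. Its probe set 1376299_at was at 11.04, 9.79 and 11.59 in 3 ZT light (replicas 1, 2 and 3), against 9.34, 8.16 and 11.29 in 3 ZT dark and 10.07, 7.85 and 10.69 in 0 ZT dark. Its dimmest, 1391689_at, was at 8.68, 7.63 and 10.24 in 3 ZT light, against 7.65, 7.00 and 10.13 in 3 ZT dark and 7.21, 6.84 and 9.48 in 0 ZT dark. Both probe sets were higher in light in each replica, yet the ranges of the conditions overlapped, and replica 3 lay above the other two in every condition shown. The brightest probe set of the gene, 1373867_at, was at 11.50, 11.89 and 11.54 in 3 ZT light, against 11.08, 11.73 and 11.61 in 3 ZT dark. The fourth, 1397617_at, stayed between 8.92 and 9.33 in 0, 3 and 6 ZT dark and in 3 ZT light, and was at 8.94, 9.64 and 9.79 in 6 ZT light.

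Herc1, a giant ubiquitin ligase, had 2 probe sets. The brighter, 1394746_at, was at 10.05, 10.40 and 10.27 in 3 ZT light, against 8.21, 7.78 and 10.01 in 3 ZT dark and 8.59, 7.78 and 9.45 in 0 ZT dark. The 3 ZT light arrays all lay above the arrays of both dark conditions, by little in replica 3 and by much in the other two. The ratio over 0 ZT dark was 2.75, 6.16 and 1.77 in replicas 1, 2 and 3, and only that of replica 3 uses neither of the 2 arrays that stand apart. The dimmer, 1369742_at, was at 6.51, 6.85 and 7.96 in 3 ZT light, against 5.81, 6.47 and 7.94 in 3 ZT dark. Its identity is open to doubt: the annotation names Herc1, while the transcript accession it was designed on belongs to Kcnj3, a potassium channel gene, in RefSeq. Such a conflict was found for 13 of 2902 probe sets with a RefSeq accession (0.448%).

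Ro60 was the only one of the 10 genes whose probe sets all met the rule. Probe set 1394972_at was at 10.81, 10.71 and 11.45 in 3 ZT light, against 9.60, 10.24 and 10.40 in 3 ZT dark and 9.69, 9.35 and 10.29 in 0 ZT dark. The other, 1382368_at, was at 9.92, 11.14 and 10.55 in 3 ZT light, against 8.51, 9.41 and 9.55 in 3 ZT dark and 9.08, 8.43 and 9.79 in 0 ZT dark. For both, every 3 ZT light array was above every array of 3 ZT dark and of 0 ZT dark. The ratio over 0 ZT dark was 1.79, 6.52 and 1.69 for 1382368_at, with the value of 6.52 from 3 ZT light replica 2, and 2.17, 2.57 and 2.24 for 1394972_at. At 6 ZT the light and dark arrays overlapped: 1394972_at was at 10.37, 10.45 and 11.09 in 6 ZT light, against 10.21, 9.73 and 11.05 in 6 ZT dark. Light was above darkness in each replica, by 0.155, 0.723 and 0.043, and every 6 ZT light array was above every 0 ZT dark array. Probe set 1382368_at was at 9.19, 9.48 and 9.96 in 6 ZT light, against 9.18, 8.52 and 10.15 in 6 ZT dark. The ratio of 6 ZT light over 0 ZT dark was 1.599, 2.15 and 1.74 for 1394972_at and 1.08, 2.06 and 1.12 for 1382368_at. For 1394972_at that of 6 ZT dark was 1.44, 1.30 and 1.69.

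Tpr and Pja2 each had 1 steady bright probe set and 1 or 2 others that varied. The bright probe set of Akap9 moved less than its other one at 3 ZT, but ran from 10.80 to 11.82 over the 15 arrays. The 3 probe sets of Hook3 were all of middling or low brightness. Hook3 1385931_at, the dimmest of 3, was at 6.51, 6.07 and 7.67 in 3 ZT light, against 4.83, 5.48 and 7.15 in 3 ZT dark, whereas its brightest, 1376741_at, was at 8.10, 8.71 and 8.06 in 3 ZT light, against 8.10, 8.49 and 8.22 in 3 ZT dark. Akap9 1384857_at was at 8.65, 9.12 and 9.95 in 3 ZT light, against 7.58, 7.80 and 9.78 in 3 ZT dark. Its bright probe set 1383151_at moved far less, with 11.82, 11.74 and 11.44 in 3 ZT light, against 11.44, 11.37 and 11.56 in 3 ZT dark. Tpr 1394814_at was at 7.00, 6.30 and 8.27 in 3 ZT light, against 5.59, 5.83 and 7.78 in 3 ZT dark, and the middle one of its 3 probe sets, 1382939_at, was at 8.36, 8.73 and 9.71, against 7.19, 7.70 and 9.33. The bright Tpr 1371695_at stayed between 10.61 and 11.23 on all 15 arrays. Pja2 1375421_a_at, whose suffix marks probes shared by alternative transcripts of 1 gene, was at 13.04, 12.68 and 13.80 in 3 ZT light, against 12.15, 11.82 and 13.39 in 3 ZT dark. It was nearly as bright as Pja2 1387903_at, which stayed between 13.27 and 13.71, so a dim signal was not common to all the probe sets that varied.

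**Figure D1:**
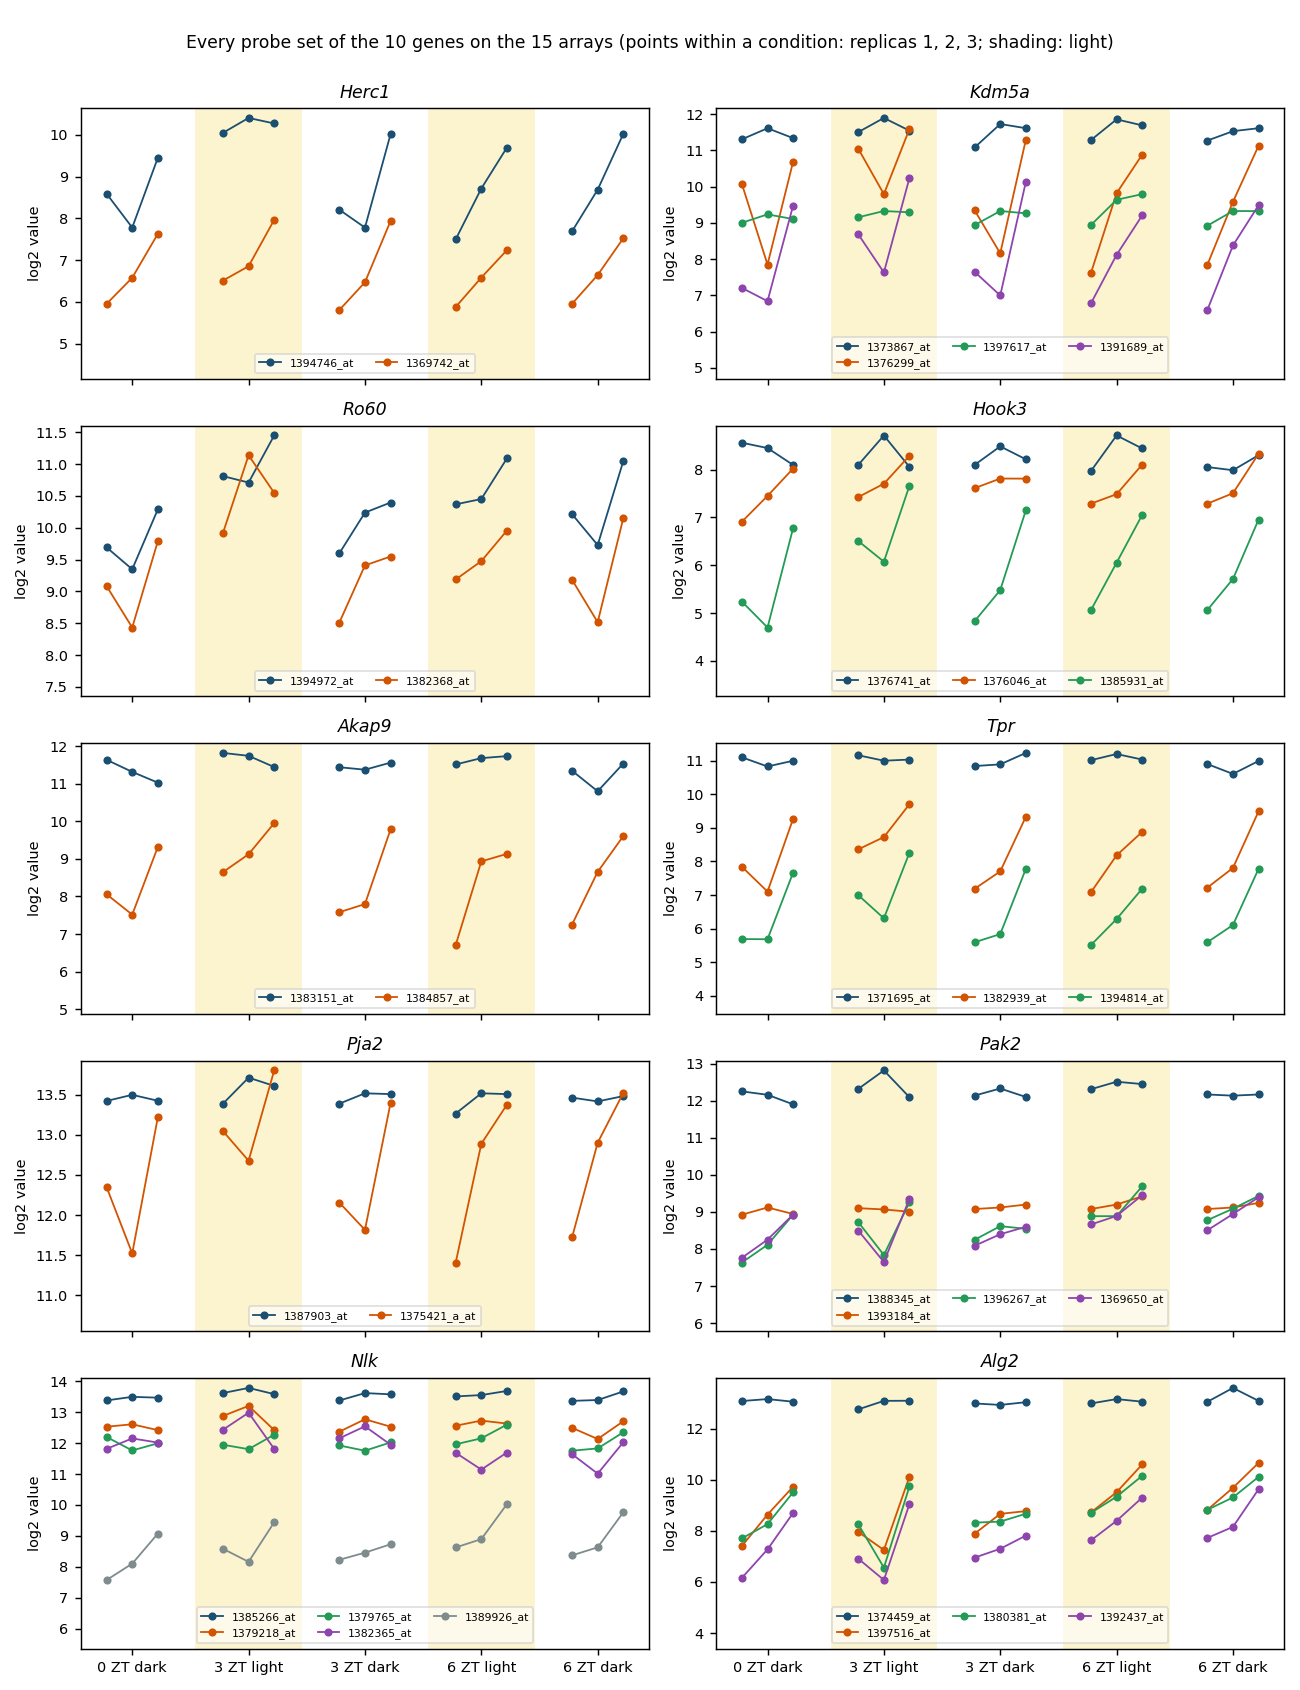
Log2 value (vertical axis) of each probe set of the 10 genes in the 5 conditions (horizontal axis), with the points of a condition for replicas 1, 2 and 3 from left to right and light conditions shaded. In most panels the top line is flat while a lower one swings by more than 1 log2 unit between arrays. In Ro60 both lines stand highest in 3 ZT light.

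The genes that passed in 6 ZT light behaved otherwise. Alg2 has 4 probe sets, and 3 of them moved as one. Alg2 1397516_at was at 8.73, 9.52 and 10.60 in 6 ZT light, against 8.83, 9.69 and 10.66 in 6 ZT dark, 7.89, 8.67 and 8.77 in 3 ZT dark and 7.41, 8.64 and 9.73 in 0 ZT dark. The values at 6 ZT were thus alike in light and in darkness. Alg2 1392437_at was at 7.63, 8.39 and 9.31 in 6 ZT light, against 7.73, 8.16 and 9.63 in 6 ZT dark, 6.95, 7.30 and 7.81 in 3 ZT dark and 6.16, 7.28 and 8.70 in 0 ZT dark, and 1380381_at followed the same course. The brightest, 1374459_at, stayed between 12.76 and 13.16 on 14 of the 15 arrays and was at 13.60 in 6 ZT dark replica 2.

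Nlk and Pak2 each had 1 probe set of this kind that met the rule. Nlk 1389926_at was at 8.63, 8.90 and 10.03 in 6 ZT light, against 8.37, 8.63 and 9.76 in 6 ZT dark, 8.23, 8.46 and 8.73 in 3 ZT dark and 7.58, 8.11 and 9.07 in 0 ZT dark. Here light was above darkness at 6 ZT in each replica, by 0.26, 0.27 and 0.27. Pak2 1396267_at was at 8.88, 8.89 and 9.69 in 6 ZT light, against 8.78, 9.09 and 9.43 in 6 ZT dark, 8.25, 8.62 and 8.54 in 3 ZT dark and 7.64, 8.11 and 8.92 in 0 ZT dark. Pak2 1369650_at took the same course with ratios of 1.86, 1.56 and 1.44, while Pak2 1393184_at, of nearly the same brightness, stayed between 8.92 and 9.42. The bright probe sets Nlk 1385266_at and Pak2 1388345_at stayed between 13.36 and 13.78 and between 11.90 and 12.81. Nlk 1379218_at and 1379765_at lay between 12.13 and 13.20 and between 11.75 and 12.60. Nlk 1382365_at went the opposite way, with 11.64, 11.01 and 12.03 in 6 ZT dark, against 12.15, 12.54 and 11.95 in 3 ZT dark.

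The tests were run with limma on comparisons other than the ratios that chose each gene. Each used all 15 arrays, replica number as a block and Benjamini-Hochberg adjustment over 31042 probe sets. In light against darkness, a gene was tested only at an hour at which none of its probe sets was above 1.5 in every replica. The light arrays of that hour thus took part in the sorting, which leaned against a higher value in light. For 6 ZT light against 6 ZT dark, the 16 probe sets tested were those of the 6 genes chosen at 3 ZT only (Herc1, Kdm5a, Hook3, Akap9, Tpr and Pja2). None passed an adjusted p of 0.05 (0% of the array passed), and at an unadjusted p of 0.05 none did either, where 5.56% of the array was higher and 2.97% lower. The probe sets that stood out at 3 ZT lay close to 0: the difference was −0.16 for Herc1 1394746_at (SE 0.451), −0.08 for Kdm5a 1376299_at (SE 0.742), −0.12 for Kdm5a 1391689_at (SE 0.484), −0.25 for Akap9 1384857_at (SE 0.418), −0.16 for Tpr 1394814_at (SE 0.245) and 0.15 for Hook3 1385931_at (SE 0.274), with limma adjusted p from 0.850 to 0.984. With standard errors of this size, even changes as large as those at 3 ZT could go undetected at this number of arrays. The difference at 3 ZT was 1.21 for Kdm5a 1376299_at and 0.85 for Akap9 1384857_at. The lack of a call thus does not show that the rise at 3 ZT was absent at 6 ZT. The lowest adjusted p was 0.585, for Kdm5a 1397617_at (0.27, SE 0.121) and Akap9 1383151_at (0.42, SE 0.190), which were higher in 6 ZT light in 3 of 3 replicas. With array quality weights Kdm5a 1397617_at passed (0.44, limma adjusted p 0.0231), together with 2311 of the 31042 probe sets. Leaving out each array in turn moved the Kdm5a 1376299_at difference between −0.77 (without 6 ZT light replica 2) and 0.69 (without 6 ZT light replica 1), so its direction rested on single arrays.

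For 3 ZT light against 3 ZT dark, the 13 probe sets of Pak2, Nlk and Alg2 were tested, genes sorted in the same way. None passed (0.00322% of the array did), and none had an unadjusted p under 0.05, where 1.96% of the array was higher and 2.64% lower. Alg2 1397516_at differed by 0.07, −1.41 and 1.36 in replicas 1, 2 and 3, and Pak2 1396267_at by 0.47, −0.78 and 0.72, so the replicas went opposite ways. The low replica in each case was 3 ZT light replica 2, the array with the Actb difference of 2.40. In the fit the difference was 0.0030 for Alg2 1397516_at (SE 0.403) and 0.14 for Pak2 1396267_at (SE 0.258), and without this array and 0 ZT dark replica 1 it was 0.60 and 0.47, still without a call. Without these 2 arrays only replica 3 has a ratio in 3 ZT light, and 6 of 31 were above 1.6 in that 1 replica. In 6 ZT light replicas 2 and 3 remain, and 4 of 31 were above 1.6 in both. These rules are easier to meet than that of every replica, and their shares over the array were not counted, so nothing is read from these counts.

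For 6 ZT dark against 3 ZT dark, where no light was involved, all 31 probe sets were tested. None passed the adjusted threshold (0% of the array), and 5 of the 31 were higher at an unadjusted p of 0.05, where 2.49% of the array was, against none lower, where 3.07% was. These were Alg2 1397516_at (1.28, SE 0.403), Alg2 1392437_at (1.15, SE 0.395), Pak2 1396267_at (0.63, SE 0.258), Pak2 1369650_at (0.59, SE 0.248) and the bright Alg2 1374459_at (0.26, SE 0.116), each higher in 3 of 3 replicas, with a limma adjusted p of 0.863. Alg2 1380381_at (0.96, SE 0.464) and Nlk 1389926_at (0.45, SE 0.205) were also higher in 3 of 3 replicas and had the same adjusted p. The bright Alg2 1374459_at was at 13.06, 13.60 and 13.09 in 6 ZT dark, against 12.99, 12.93 and 13.04 in 3 ZT dark. Its rise was mostly that of replica 2. When each array was left out in turn, the difference ran from 0.85 to 1.55 for Alg2 1397516_at and 0.39 to 0.85 for Pak2 1396267_at. For Nlk 1389926_at it ran from 0.18 to 0.60. Each of these 3 was lowest without 3 ZT dark replica 3. The median of the 5 probe sets of Alg2 (3), Nlk (1) and Pak2 (1) above a ratio of 1.5 at 6 ZT light was 0.96 in this comparison and −0.02 in 6 ZT light minus 6 ZT dark, beside 0.0010 and −0.0067 over all probe sets. The 6 ZT light arrays entered the choice of these 5, so both medians are descriptions. The lens and pigment epithelium means given above moved between these conditions too.

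**Figure D2:**
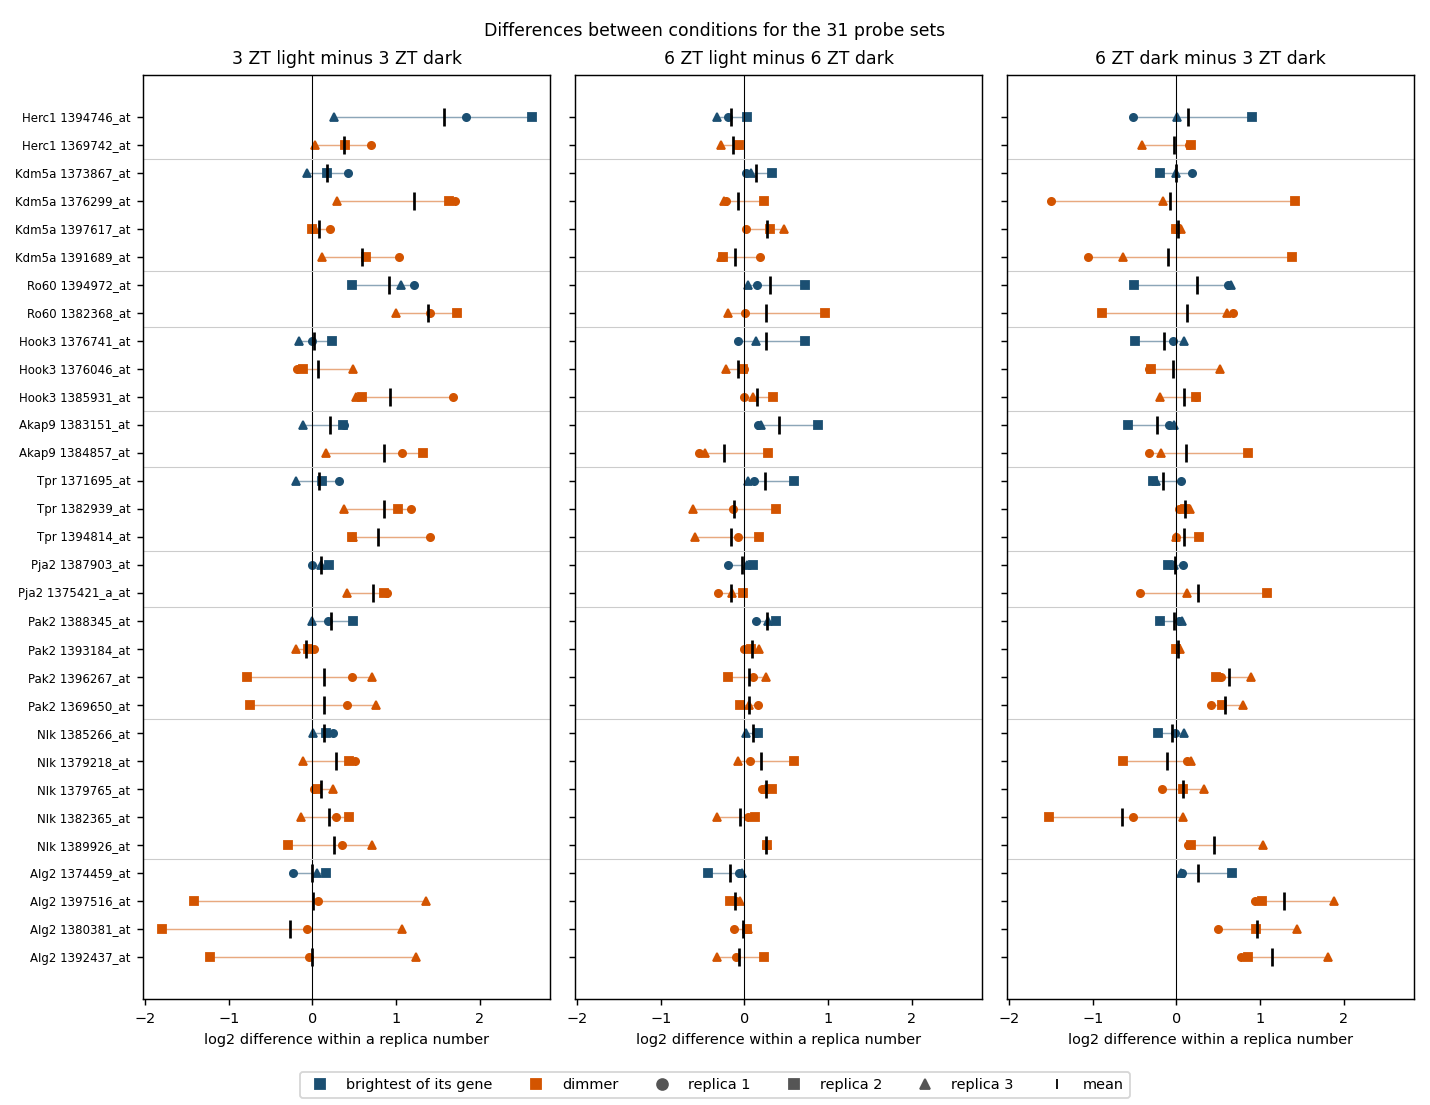
Log2 difference within a replica number (horizontal axis) for the 31 probe sets (vertical axis, brightest of each gene on top) in 3 comparisons, with symbols for replicas 1, 2 and 3, a line from lowest to highest, and a tick for the mean. At 3 ZT (left) Kdm5a 1376299_at and 1391689_at and the dimmer probe sets of Akap9, Tpr and Pja2 lie right of the brightest, at 6 ZT (middle) they do not, and in 6 ZT dark minus 3 ZT dark (right) 3 dimmer Alg2 and 2 Pak2 probe sets lie right of 0 in every replica.

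Whether probe sets of a gene responded differently was tested on the difference between each dimmer and the brightest probe set, over 6609 such pairs on the array. For light against darkness, genes were sorted by hour as above. In 6 ZT light against 6 ZT dark, none of the 10 pairs of the 6 genes passed in limma (0% of all pairs), nor did any at an unadjusted p of 0.05, where the dimmer was above the brightest in 1.17% of all pairs and below it in 4.74%. The largest difference was −0.66 (SE 0.392) for Akap9 1384857_at. In 3 ZT light against 3 ZT dark, none of the 10 pairs of Pak2, Nlk and Alg2 passed (0% of all pairs) or had an unadjusted p under 0.05 (2.89% above and 1.44% below). In 6 ZT dark against 3 ZT dark, none of 21 pairs passed (0% of all pairs). At an unadjusted p of 0.05, Alg2 1397516_at (1.02, SE 0.410) and Nlk 1389926_at (0.50, SE 0.217) were above the brightest, where 4.02% of pairs were, and Nlk 1382365_at (−0.61, SE 0.265) was below, where 0.953% were. Their limma adjusted p was 0.895.

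Over all 15 arrays, the probe sets that varied at the same hour followed each other across genes. Outside the arrays that chose them, this held evenly only for Alg2, Nlk and Pak2. Likeness was taken as Pearson's r of log2 values centred within replica numbers, a description only, since the points share arrays and normalization and the probe sets were chosen partly on them. Among the 8 probe sets above 1.5 in every replica at 3 ZT light, r over 15 arrays ran from 0.183 to 0.951 between genes (median 0.762, 26 pairs). Over the 9 arrays of 3 ZT dark, 6 ZT dark and 6 ZT light, which did not enter the ratios, it ran from −0.749 to 0.961 (median 0.290), and was above 0 in 16 of 26 pairs. Among the 5 probe sets of Alg2, Nlk and Pak2 above 1.5 at 6 ZT light, r was 0.727 to 0.922 over 15 arrays (7 pairs between genes) and 0.730 to 0.956 over the 9 arrays of 3 ZT light, 3 ZT dark and 6 ZT dark that did not enter. These 9 include 3 ZT light replica 2, where the 5 probe sets were lowest, and over the other 8 arrays r was 0.8003 to 0.918. Without both arrays that stand apart, r over 13 arrays was 0.815 to 0.918 in this group and 0.263 to 0.964 (median 0.804) among the 8 probe sets, whose 9 arrays hold neither. Outside the arrays that chose them, r was thus above 0 in 7 of 7 pairs of the group of Alg2, Nlk and Pak2, and uneven among the 3 ZT genes.

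**Figure D3:**
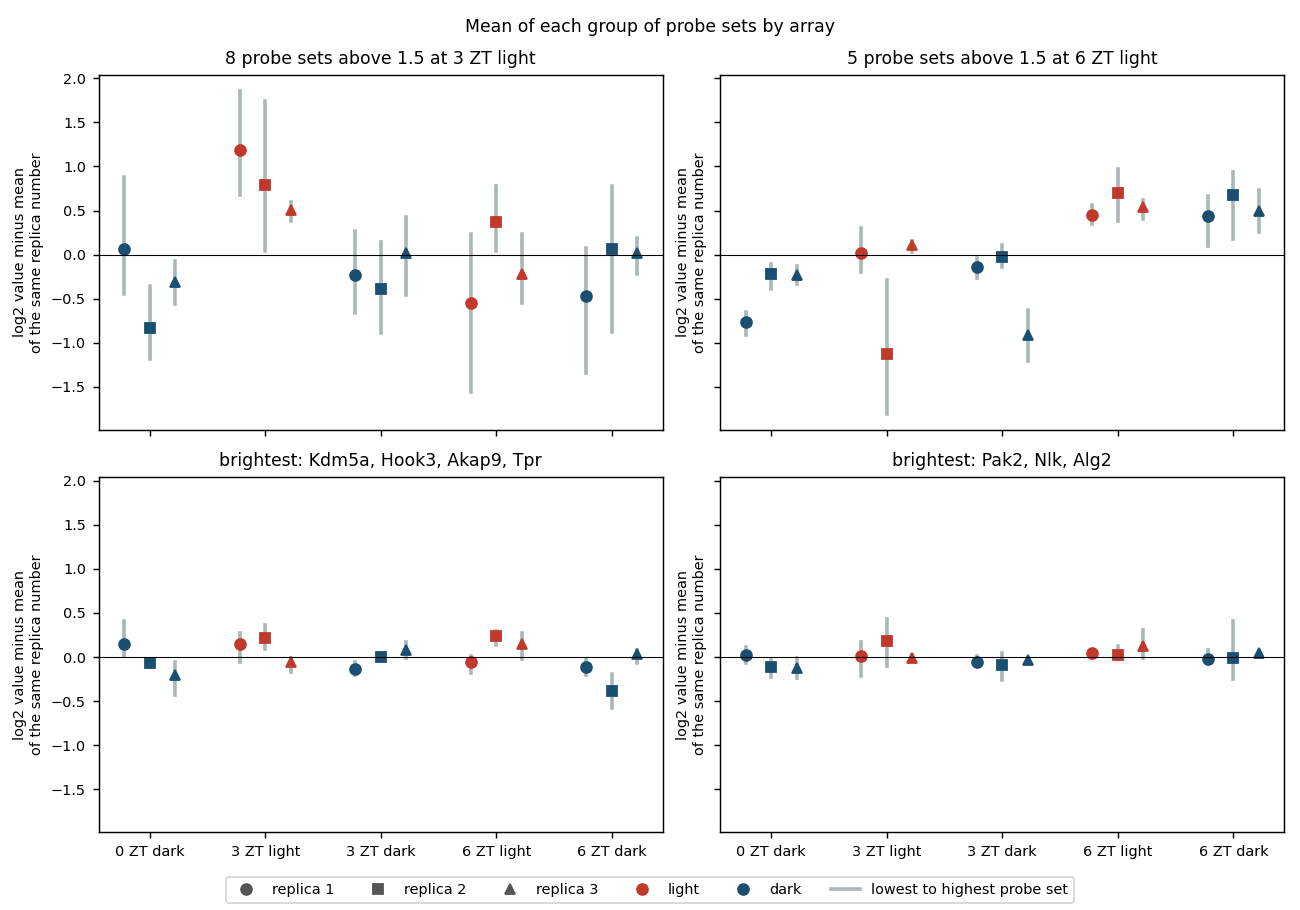
Mean log2 value after subtracting the mean of the same replica number (vertical axis) for 4 groups of probe sets on each array, by condition (horizontal axis), with a bar from the lowest to the highest probe set. The 8 probe sets above 1.5 at 3 ZT light have means of 0.50 to 1.19 in 3 ZT light. The 5 of Alg2, Nlk and Pak2 above 1.5 at 6 ZT light are at 0.45 to 0.70 in 6 ZT light and 0.44 to 0.67 in 6 ZT dark, and lowest, −1.13, in 3 ZT light replica 2, 1 of the 2 arrays that stand apart.

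Within Kdm5a, Tpr, Pak2 and Alg2, the varying probe sets were closer to each other than to the brightest. Over the 9 arrays that did not enter the ratios, Kdm5a 1376299_at and 1391689_at correlated at 0.898, but at −0.421 and −0.532 with the brightest Kdm5a 1373867_at. Tpr 1394814_at correlated at 0.941 with the middle Tpr 1382939_at and at 0.284 with the brightest, and Pak2 1396267_at at 0.994 with 1369650_at and at −0.629 with the brightest. The 3 Alg2 probe sets correlated at 0.965 to 0.998 among themselves and at 0.561 to 0.572 with the brightest, and both Ro60 probe sets at 0.936. Hook3 was an exception, since its dim 1385931_at correlated at −0.772 with the middle 1376046_at and at 0.251 with the brightest. Over the same 9 arrays, 0.00322% of all other probe sets were closer to Pak2 1396267_at than its partner was, and none was closer to Alg2 1397516_at than 1392437_at. Without 3 ZT light replica 2, the r of Pak2 1396267_at was 0.988 with 1369650_at and 0.045 with the brightest, so the negative value rested on that array. The Alg2 probe sets were then at 0.988 to 0.997 among themselves and at 0.532 to 0.623 with the brightest. Nlk was mixed: on these arrays 1389926_at was at 0.846 with 1379765_at, 0.206 with 1379218_at and −0.052 with 1382365_at, against 0.324 with the brightest.

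**Figure D4:**
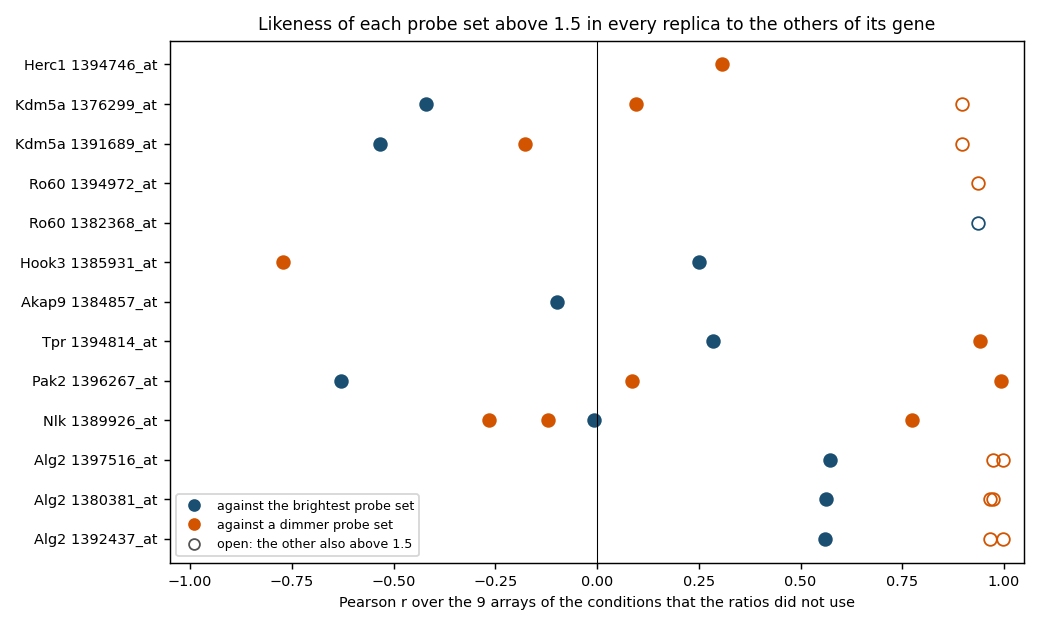
Pearson r (horizontal axis) over the 9 arrays whose conditions did not enter the ratios, between each probe set above 1.5 in every replica (vertical axis) and the others of its gene. Blue points are against the brightest probe set and orange points against a dimmer one, and open points mark a partner that was itself above 1.5. Alg2, Ro60, Kdm5a, Tpr and Pak2 each have a partner at 0.89 or more, and r with a brightest probe set that was not above 1.5 reaches at most 0.57.

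By the same measure over 15 arrays, the probe sets most like those of the 10 genes belonged mainly to other genes. They were Mga (0.960) and Smurf2 (0.956) for Herc1 1394746_at, Sltm (0.989) and Gpatch8 (0.987) for Kdm5a 1376299_at, Cyrib (0.946) and Msi2 (0.946) for Ro60 1382368_at, and Yme1l1 (0.955) and Rab27b (0.931) for Hook3 1385931_at. At 6 ZT they were Patl1 (0.962) and Pak2 itself (0.960) for Pak2 1396267_at, Pbrm1 (0.956) and Gucy2d (0.936) for Nlk 1389926_at, and Alg2 itself (0.985) and Scd2 (0.979) for Alg2 1397516_at. For Akap9, Tpr and Pja2, which had no probe set above 1.6, the brightest was used, and the closest were Rev3l (0.967) and Ubr1 (0.967), Rsf1 (0.942) and Cul1 (0.929), and Stx12 (0.909) and Hecw2 (0.906). Without both arrays that stand apart, r ran from 0.818 (Stx12 for Pja2) to 0.992 (Sltm for Kdm5a) over these 20 partners. The course of Alg2 1380381_at was shared widely, with 346 probe sets of the array (1.11%) at an r above 0.9 and 132 without the 2 arrays, whereas that of Kdm5a 1391689_at was shared by 1 and, without the 2 arrays, by 32.

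The probe sets that varied with condition also varied most between replicas. The residual SD of the fit, the spread left after condition and replica number, lay above the 80th percentile of all probe sets for each of the 13 probe sets above 1.5 at 3 ZT or 6 ZT light, and reached 1.04 for Kdm5a 1376299_at (percentile 99.9). For the brightest probe sets of Kdm5a, Hook3, Akap9, Tpr, Pja2, Pak2, Nlk and Alg2 it lay between the percentiles 14.9 and 81.7. The mean of replica 3 exceeded that of replica 1 by 0.72 to 2.32 in the 13 probe sets, against −0.10 to 0.27 in those 8 brightest probe sets and a median of 0.37 over the array. In the dimmer probe sets outside the 13, the residual SD ran from percentile 25.6 (Pak2 1393184_at) to 98.2 (Pja2 1375421_a_at). Their gap between replicas 3 and 1 ran from −0.05 (Nlk 1382365_at) to 1.80 (Tpr 1382939_at). A large spread and a large gap were thus not particular to the 13, and their part in the light ratios was not tested.

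**Figure D5:**
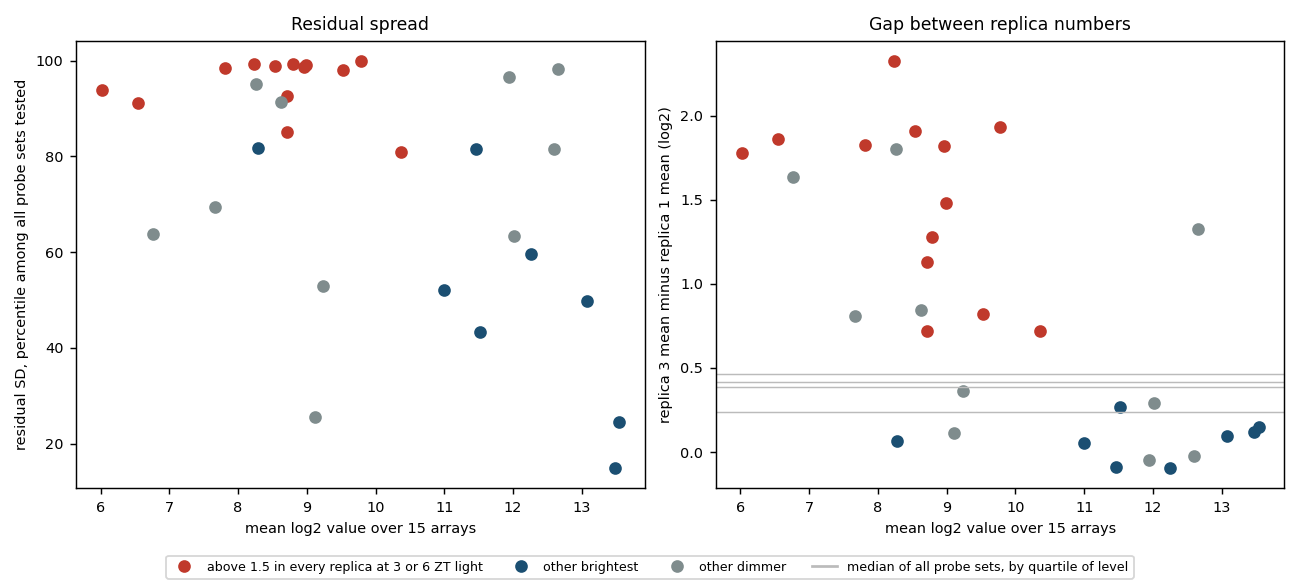
Residual SD as a percentile of 31042 probe sets (left, vertical axis) and mean of replica 3 minus mean of replica 1 in log2 units (right, vertical axis) against mean log2 value (horizontal axes) for the 31 probe sets. Red points are the 13 above 1.5 in every replica at 3 or 6 ZT light, blue other brightest, grey other dimmer, and grey lines the medians of all probe sets by quartile of level. The red points lie above 0.7 on the right and above the percentile 80 on the left, as do some grey points. The blue points of Hook3 and Akap9 also lie above the percentile 80 on the left.

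Other genes of the same pathways, each read by its brightest probe set, gave no calls: over 9 lists (ubiquitin ligases, KDM5 demethylases, Ro and La ribonucleoproteins, Hook adaptors and dynein, AKAP scaffolds, nucleoporins, PAK kinases, Wnt signalling and ALG glycosylation), none of 7 to 18 measured genes per list passed in limma in any of the 3 comparisons, in either direction. Over all 31042 probe sets, 0.00322% passed in 3 ZT light against 3 ZT dark and 0% in the other comparisons. At an unadjusted p of 0.05, each list had 0 to 2 genes in a comparison. Over the array 5.56% were higher and 2.97% lower in 6 ZT light against 6 ZT dark. The shares were 1.96% and 2.64% in 3 ZT light against 3 ZT dark, and 2.49% and 3.07% in 6 ZT dark against 3 ZT dark. Nothing is read from these counts. In 6 ZT light against 6 ZT dark, 16 of 18 nucleoporin and transport genes were above 0 with a median of 0.12. The median over all probe sets, bright and dim, was −0.0067. Brightest probe sets lay higher than dimmer ones in this comparison (median of dimmer minus brightest −0.0481 over all pairs), so nothing is read from the contrast. Nup160, a scaffold nucleoporin, had the lowest p of the list (0.30, SE 0.0879, adjusted p = 0.508 in limma). Kdm5c, a relative of Kdm5a, was at 0.44 (SE 0.151, adjusted p = 0.524), Akap8, a nuclear anchor of protein kinase A, at 0.22 (SE 0.0824, adjusted p = 0.550), Git2, a partner of PAK kinases, at 0.30 (SE 0.112, adjusted p = 0.550) and Dolpp1, a dolichol phosphatase, at −0.15 (SE 0.0650, adjusted p = 0.583). In 3 ZT light against 3 ZT dark, Cdk5rap2, a centrosome protein on the AKAP list, had the lowest p of the 9 lists (−0.43, SE 0.138). Sin3b, a corepressor, was at −0.47 (SE 0.184), and the KDM5 list had 2 genes lower and none higher at an unadjusted p of 0.05. Hook1, a relative of Hook3, was at 0.26 (SE 0.0940), Wwp1, a ubiquitin ligase, at 0.37 (SE 0.148) and Gsk3b, a kinase of the Wnt pathway, at 0.42 (SE 0.173). All 5 had a limma adjusted p of 0.895. In 6 ZT dark against 3 ZT dark, Prkaca, a catalytic subunit of protein kinase A, was at 0.27 (SE 0.102), Alg14, an ALG glycosyltransferase subunit, at −0.29 (SE 0.116) and Pnpt1, an RNA exonuclease, at −0.31 (SE 0.132), each with a limma adjusted p of 0.863.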

How the data were processed

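The authors hybridised retinal RNA to RAT230_2 arrays and summarised the scans to log2 values by Robust Multi-array Average, and these deposited log2 values were used unchanged. The software and genome build are not given in the sources used here. Probe sets were named through the platform annotation, with 20764 probe sets matched by Entrez identifier to RefSeq (GRCr8). Of 31099 probe sets, 57 controls were left out.

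The 10 genes and the gene lists were chosen with earlier results of these data known. Differences came from limma 3.58.1 in R 4.3.3 (condition and replica number as terms, 15 arrays, 31042 probe sets, Benjamini-Hochberg, threshold 0.05). Pairs of probe sets were tested likewise. The replica numbers were taken as pairing the samples, since the methods take ratios within a number and same-numbered arrays deviated together in each of 30 pairs (r from 0.241 to 0.797). All 31 probe sets of the 10 genes are named, with the 2 closest probe sets for 1 of each gene (that with the highest mean ratio above 1.6, else the brightest) and, of each gene list, the gene with the lowest p where it was under 0.05. The number of arrays limits the precision.

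Alternatives were no replicate block, quantile normalization, array quality weights (statmod 1.5.0), dim probe sets left out, only the conditions compared, the bright probe set chosen in 0 ZT dark, ratios above 1.5 or 2, and each array left out. Leaving out both arrays with large Actb differences, also for the correlations, was chosen after seeing the data. Figures were drawn with matplotlib 3.10.9.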

Additional observations from a re-analysis of the deposited data

Results flagged for a closer look

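Pja2 1375421_a_at and Herc1 1369742_at moved in opposite directions at 3 ZT and at 6 ZT, in light against darkness of the same hour, in every replica. Pja2 1375421_a_at was higher in 3 ZT light than in 3 ZT dark by 0.89, 0.86 and 0.41 in replicas 1, 2 and 3 (mean 0.72), and 6 ZT light minus 6 ZT dark was −0.31, −0.01 and −0.14 (mean −0.16). Herc1 1369742_at, the probe set whose accession belongs to Kcnj3, differed by 0.70, 0.38 and 0.03 at 3 ZT (mean 0.37), and by −0.08, −0.06 and −0.28 at 6 ZT (mean −0.14). Some of these differences were close to 0 (−0.01 and 0.03). How often probe sets of the whole array do the same was not counted, so nothing is read from the pattern. The difference between the hours was not tested, and the differences at 3 ZT share the 3 ZT light arrays with the ratios that chose the genes.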

How the results depend on the processing

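Of 503 values recomputed under the alternatives, 477 kept their direction and their side of the threshold, or, for counts, stayed within 1.5 times. Part of this was fixed in advance, so the share is not a measure of robustness. Leaving out an array of a condition outside the comparison, or the replicate block, leaves the difference between the compared conditions unchanged. With array quality weights, 1 of 16 probe sets passed in 6 ZT light against 6 ZT dark, Kdm5a 1397617_at (0.44, limma adjusted p 0.0231, without weights 0.27), in a fit that called 2311 of 31042 probe sets, and Kdm5a 1376299_at became 0.22. Without the replicate block no probe set passed in any comparison, with the same differences, and ratios to the mean control left 3 of 31 probe sets above 1.6 in 3 ZT light and 0 in 6 ZT light, where 6 and 3 were found within replicas. A ratio above 2 left 1 and 0, and a ratio above 1.5 gave 6 in 6 ZT light. Without 6 ZT light replica 3, and likewise without 0 ZT dark replica 3, the count above 1.6 in 6 ZT light was 5 (range 3 to 5). It then rests on fewer replicas, and the share over the array was not counted. Leaving out each array in turn moved 6 ZT light minus 6 ZT dark across 0 for Kdm5a 1376299_at (−0.77 to 0.69), Kdm5a 1391689_at (−0.57 to 0.42), Akap9 1384857_at (−0.75 to 0.17), Herc1 1394746_at (−0.49 to 0.18), Tpr 1394814_at (−0.46 to 0.037) and Hook3 1385931_at (−0.11 to 0.34). It likewise moved 3 ZT light minus 3 ZT dark for Alg2 1397516_at (−0.43 to 0.62) and Pak2 1396267_at (−0.10 to 0.49). The causes of these shifts were not tested. The lowest limma adjusted p over 21 alternatives was 0.497 in 3 ZT light against 3 ZT dark and 0.205 in 6 ZT dark against 3 ZT dark. With 3 replicas, the number of arrays limits the precision, and the residual SD reached 1.04 (Kdm5a 1376299_at).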
